A study of Rattus norvegicus with 99 samples.

Results

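The right ventricle was examined in rats whose left heart had failed. A clip placed around the aorta loads the left ventricle, so the right ventricle of these animals carried no band of its own. The comparison holds 7 of the 99 libraries of the series, namely 4 right ventricles of rats in decompensated failure after aortic banding (AOB-F) and 3 of their sham-operated controls (Sham-LF), and they were picked by sample title. All animals were male F1 rats from a cross of Wistar Kyoto females with Lewis males, and by the sample labels both groups were 30 weeks old and 24 weeks past surgery. The treatment text of the labels and the study give somewhat different ages and intervals. Each library was made from polyadenylated RNA of ventricular tissue and not of isolated cells, so that fewer cells of a type and less RNA per cell cannot be told apart. For comparison, the left ventricle (LV) and the interventricular septum (Spt) of the same 7 animals were used, together with right ventricles (RV) after pulmonary artery banding in failure (PAB-F, n = 3, with 2 Sham-RF, age 27 weeks, 21 weeks after surgery) and at the compensated stage of aortic banding (AOB-H and Sham-H, n = 7 each, age 11 weeks, 7 weeks after surgery).

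The right ventricle pumps into the low-pressure lung circulation. When the left ventricle fails, pressure backs up through the left atrium and the lung vessels and can come to load the right side. A loaded ventricle is known for a return to fetal genes, in which natriuretic peptides, skeletal actin and the slow myosin Myh7 become more abundant, for deposition of extracellular matrix by fibroblasts, and for a shift away from fatty acid oxidation.

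Library totals ranged from 12.8 M to 17.9 M counts, with 13.3% to 15.4% of them in the top 10 genes. The tissue field of the labels names the left ventricle while title and source name the right, so chamber identity was checked with 50 genes that separated RV from LV in the other 26 animals. In all 7 animals these genes differed in the expected direction on average, by 0.24 to 0.61 on the log2 scale. The check was weakest in AOB-F replicates 1 and 4, with 33 and 31 of the 50 genes in that direction and means of 0.31 and 0.24, against 43 to 49 genes in the other 5 animals. In 3 of the other animals, AOB-H replicate 1, PAB-H replicate 2 and Sham-H replicate 6, they pointed the opposite way, and leaving these out left the number of genes called at 0.

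Across 11734 genes tested, no gene passed an adjusted p of 0.05 (percent called 0, lowest adjusted p = 0.328 by edgeR's quasi-likelihood test), whereas 1509 genes (12.9%) had an unadjusted p under 0.05, 811 of them higher (6.91%) and 698 lower (5.95%) in AOB-F. By direction alone, 54.2% of genes were higher and 45.8% lower. In 1157 genes (9.86%) the 4 AOB-F values and the 3 sham values were fully separate, 574 of them higher (4.89%) and 583 lower (4.97%) in failure. In the same animals the same test called 98 genes in LV (0.837%) and 27 in Spt (0.232%), and an unadjusted p under 0.05 was reached by 12.7% of genes in LV (7.03% higher, 5.67% lower) and by 12.2% in Spt (5.71% higher, 6.5% lower). DESeq2 called 3 genes in RV. Differences below are therefore given as values, and none is described as having passed the test unless this is said.

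The 4 failing animals were not alike in this chamber. Replicates 1 and 4 of AOB-F correlated with each other at r = 0.995 across genes, and with replicates 2 and 3 at 0.970 to 0.976, while replicates 2 and 3 correlated with the 3 shams at 0.983 to 0.989. The shams were split as well, since Sham-LF replicate 3 correlated with AOB-F replicates 1 and 4 at 0.980 and 0.978, and Sham-LF replicates 1 and 2 with these at 0.957 to 0.965. Of the 811 genes that were higher, replicates 1 and 4 held the top ranks among all 7 libraries in 616 (76%). Of the 698 lower genes they held the bottom ranks in 591 (84.7%). Over all genes tested these shares were 21.1% and 21.5%. Since the 811 and 698 genes were selected for the difference between groups, which places extreme ranks in AOB-F, the counts are descriptions. The group mean of most genes below thus lies between 2 high and 2 low animals.

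The natriuretic peptides Nppa and Nppb, hormones that lower blood volume and are classic markers of wall stress, followed this pattern. Nppa stood at 5871, 1363, 94.5 and 8313 CPM (counts for each M counts of the scaled library) in the 4 AOB-F libraries and at 75.6, 95.9 and 1228 CPM in the 3 Sham-LF libraries. The groups overlapped, since AOB-F replicate 3 was as low as the lowest shams and Sham-LF replicate 3 was near AOB-F replicate 2. The log2 fold change was 3.09 ± 1.64 (SE, adjusted p = 0.409). Nppb stood at 682, 103, 46.2 and 832 CPM in AOB-F and at 63.4, 63.6 and 147 CPM in Sham-LF (log2 fold change 2.2 ± 0.905, adjusted p = 0.352). Again AOB-F replicates 1 and 4 lay far above the other 5 libraries. Of the 8 tested members of the natriuretic peptide list, which adds receptors and processing enzymes, 7 were higher (4 with the trend along transcript length described below taken out) and 1 of them, Nppb, had an unadjusted p under 0.05. The clearance receptor Npr3, which removes the peptides, was at 29.1, 17.4, 12.5 and 30.5 CPM against 9.34, 8.6 and 20.0 CPM.

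Nppa is also the main peptide of the atria, and markers of atrial muscle were uneven among the 7 libraries. The atrial myosin light chain Myl7 was at 27, 878, 158 and 20 FPKM (read counts per kilobase of transcript, scaled for depth) in AOB-F and at 131, 125 and 940 FPKM in Sham-LF. AOB-F replicate 2 and Sham-LF replicate 3 were thus highest, and the animals richest in Nppa, AOB-F 1 and 4, were lowest. The same 2 libraries were highest in sarcolipin (Sln, a regulator of the calcium pump in atria) at 403 and 696 FPKM against 4.44 to 30.0 FPKM in the other 5, in Mybphl at 15.9 and 15.2 FPKM against 0.063 to 0.73 FPKM, and alone had counts for Bmp10, at 4.40 and 3.57 FPKM. They held the top ranks in 7 of the 12 atrial genes tested. Other members did not follow, such as Dkk3, at 51.2, 36.7, 39.6 and 56.6 FPKM in AOB-F and 39.4, 39.9 and 49.6 FPKM in Sham-LF, and AOB-F replicates 1 and 4 held the top ranks in 2 members, Nppa included, or the bottom ranks in 4. Summed over all 12 atrial genes tested, Nppa included, the level ranged from 425 to 10550 FPKM in AOB-F and from 350 to 3514 FPKM in Sham-LF, and 5 of the 12 were higher in AOB-F, none with an unadjusted p under 0.05. Without these 2 libraries the log2 fold change of Nppa was 5.77 (adjusted p = 0.133), that of Nppb 3.01 (adjusted p = 0.123), and still no gene was called.

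**Figure D1:**
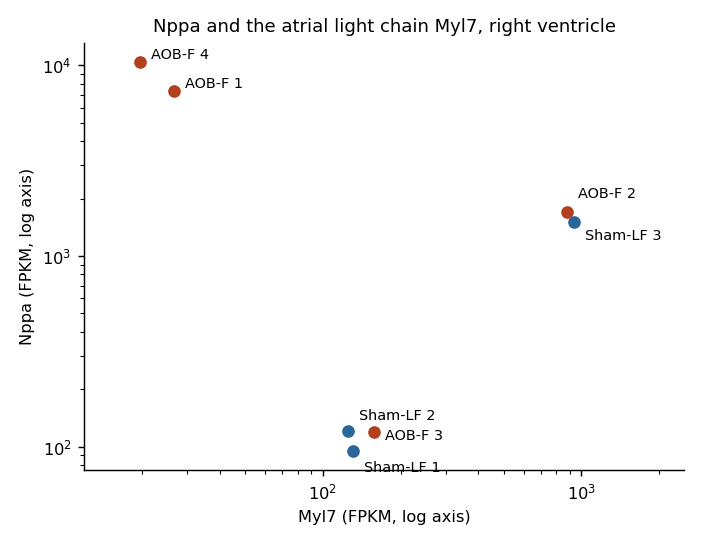
Level of Nppa against that of the atrial light chain Myl7 in the 7 right-ventricular libraries, both in FPKM on log axes, with 1 point per animal (red AOB-F, blue Sham-LF). AOB-F 1 and 4 combine the highest Nppa with the lowest Myl7, whereas AOB-F 2 and Sham-LF 3 are high in Myl7 at 878 and 940 FPKM.

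The bases upstream of 4 of these load-responsive genes are shown because their mRNAs were high in the same animals. Each line holds the 250 bases before the transcription start, from RefSeq on build GRCr8, 5′ to 3′ on the strand of the gene, and capitals mark every match, on either strand, to 4 motifs of cardiac promoters.
Nppa: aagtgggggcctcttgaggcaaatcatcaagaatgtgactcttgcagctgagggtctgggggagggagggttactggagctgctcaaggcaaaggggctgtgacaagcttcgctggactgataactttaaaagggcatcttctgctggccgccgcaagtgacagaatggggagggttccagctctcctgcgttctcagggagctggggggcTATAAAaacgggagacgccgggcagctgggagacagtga
Nppb: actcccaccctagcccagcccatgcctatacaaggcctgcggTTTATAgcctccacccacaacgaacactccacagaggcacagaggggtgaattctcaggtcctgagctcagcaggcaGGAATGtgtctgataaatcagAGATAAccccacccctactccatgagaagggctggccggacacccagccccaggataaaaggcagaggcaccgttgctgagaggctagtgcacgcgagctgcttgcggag
Acta1: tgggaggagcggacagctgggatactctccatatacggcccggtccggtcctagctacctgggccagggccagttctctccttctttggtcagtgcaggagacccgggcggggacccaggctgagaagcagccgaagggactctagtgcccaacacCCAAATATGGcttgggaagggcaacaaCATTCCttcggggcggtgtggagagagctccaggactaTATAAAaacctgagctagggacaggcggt
Ankrd23: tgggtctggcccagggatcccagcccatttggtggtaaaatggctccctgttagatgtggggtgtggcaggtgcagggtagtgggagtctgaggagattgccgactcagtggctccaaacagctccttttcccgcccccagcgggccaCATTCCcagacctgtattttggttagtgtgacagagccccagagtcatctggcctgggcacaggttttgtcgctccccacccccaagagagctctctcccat
Nppa lies at chr5:163711934-163712183 and Nppb at chr5:163699758-163700007, both on the plus strand, Acta1 at chr19:68784195-68784444 and Ankrd23 at chr9:46274511-46274760, both on the minus strand. The MCAT motif, CATTCC, is bound by TEAD factors. The motif searched for GATA factors was AGATAA. The TATA box was searched as TATAAA, and the CArG box is bound by serum response factor. Of 12 genes looked up, 8 had an entry, and MCAT was found in 4 of them, namely Nppb, Acta1, Ankrd23 and Tceal7. In all 8907 promoters of tested genes of this length, 9.98% held MCAT, 5.80% AGATAA, 6.74% TATAAA and 1.13% the CArG box. The promoter of Acta1 held MCAT from -67 to -62, the CArG box from -94 to -85 and TATAAA from -29 to -24, counted from the start. Such matches describe letters only, and the 12 genes were picked for their levels in these animals.

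Genes of the sarcomere and of the stretch response were mostly higher. Its 23 tested members had a median log2 fold change of 0.44, against 0.03 for all genes, with 16 higher. An unadjusted p under 0.05 was reached by 11 of the higher (47.8% of the list, against 6.91% of all genes) and by no lower member. Without AOB-F replicate 4 the median was 0.21, and without the 2 libraries highest in Myl7 it was 0.68. Xirp2, an actin-binding protein of the intercalated disc, was at 2686, 407, 368 and 3389 CPM in AOB-F and 350, 385 and 504 CPM in Sham-LF (log2 fold change 2.06 ± 0.55, adjusted p = 0.328). Its AOB-F replicates 2 and 3 lay among the shams. Ankrd23, a titin-bound ankyrin repeat protein induced by stretch, was at 438, 32.7, 34.8 and 419 CPM against 16.7, 29.6 and 26.6 CPM, without overlap (3.25 ± 1.04, adjusted p = 0.328). The related Ankrd1 overlapped between groups, at 7322 to 18550 CPM against 7138 to 9893 CPM. Acta1, the skeletal alpha-actin of the fetal heart, was at 3663, 435, 505 and 4117 CPM against 726, 674 and 522 CPM (1.77 ± 0.76, adjusted p = 0.365). In that gene AOB-F replicates 2 and 3 were below every sham.

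The myosin heavy chains moved apart in the same animals. Myh7, the slow isoform, was at 14681, 6483, 5785 and 15804 CPM in AOB-F and at 4034, 4672 and 3949 CPM in Sham-LF. All 4 failing animals thus exceeded all shams, replicates 2 and 3 included (log2 fold change 1.35 ± 0.43, adjusted p = 0.328). Myh6, the fast isoform of the adult rat, was at 6583, 17930, 16750 and 7110 CPM against 16730, 15060 and 18750 CPM, so that replicates 1 and 4 lay far below every sham while replicates 2 and 3 lay within the sham range (-0.47 ± 0.32, adjusted p = 0.499). Nrap, which anchors actin at growing myofibrils, was at 1122, 555, 518 and 1173 CPM against 432, 486 and 614 CPM. Tceal7, a small nuclear protein, followed the same animals at 130, 8.91, 8.65 and 164 CPM against 7.48, 9.32 and 3.62 CPM. Penk, the precursor of enkephalins, was at 166, 47.9, 42.1 and 187 CPM against 54.4, 34.2 and 33.9 CPM.

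**Figure D2:**
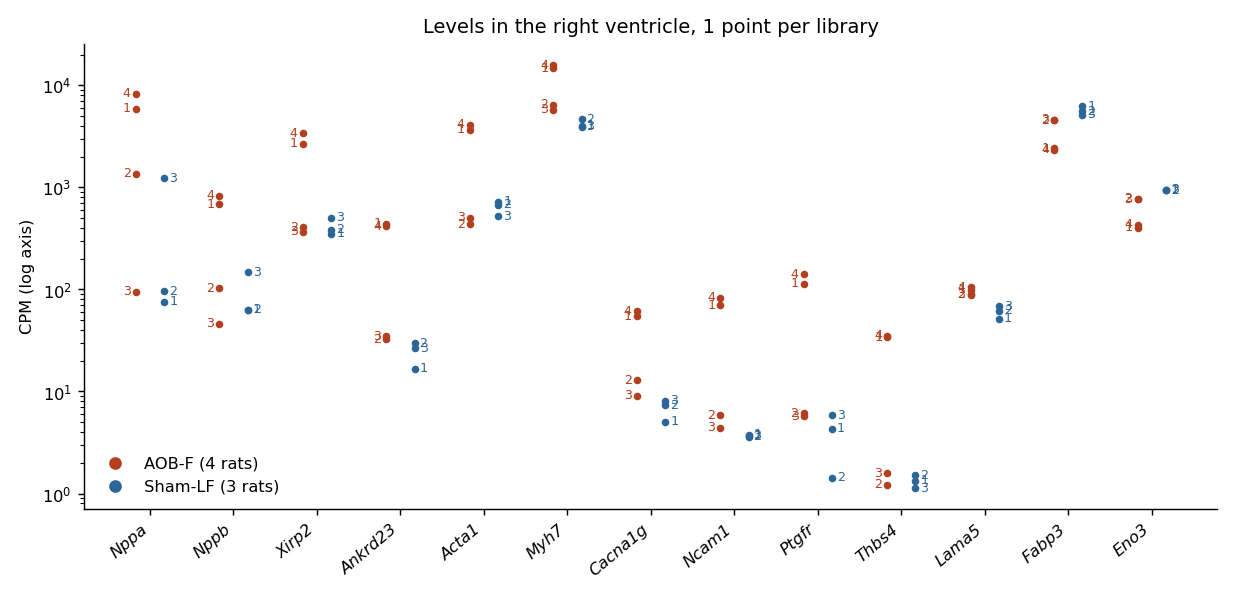
Levels of 13 genes in CPM on a log axis in the right ventricle, with 1 numbered point per replicate (red AOB-F, blue Sham-LF). Replicates 1 and 4 of AOB-F stand above the other 5 libraries from Nppa to Thbs4 and below them for Fabp3 and Eno3, whereas all 4 AOB-F libraries lie close together for Lama5.

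The T-type calcium channel subunit Cacna1g, a channel that opens at low voltage and is prominent in the fetal heart, was at 54.7, 12.8, 9.08 and 61.5 CPM in AOB-F and 5.04, 7.33 and 8.09 CPM in Sham-LF, with no overlap. Its log2 fold change was 2.34 ± 0.49 (adjusted p = 0.328). Its relative Cacna1h was at 28.7, 10.9, 10.4 and 36.2 CPM against 6.00, 6.37 and 11.7 CPM, where Sham-LF replicate 3 overlapped with AOB-F replicates 2 and 3. Ptgfr, the receptor for prostaglandin F2-alpha, was at 114, 6.09, 5.72 and 141 CPM against 4.30, 1.43 and 5.83 CPM (4.10 ± 0.90, adjusted p = 0.328). The adhesion molecule Ncam1 was at 70.3, 5.83, 4.43 and 83.2 CPM against 3.78, 3.59 and 3.68 CPM (3.48 ± 0.81, adjusted p = 0.328). In Ncam1 the step from the shams was small in replicates 2 and 3 and large in replicates 1 and 4. Cacna1g and Ncam1 were picked among genes without overlap between groups, so that their separation is no finding. The fibronectin receptor subunit Itga5 was at 122, 68.3, 69.6 and 114 CPM against 60.2, 53.5 and 66.1 CPM. Of these, Cacna1g, Ptgfr and Ncam1 were the 3 genes DESeq2 called, with adjusted p of 0.00126, 0.00126 and 0.00825. Of these 3, Ptgfr overlapped between groups, while Cacna1g and Ncam1 did not, as their choice required. In 1 fit of all 99 libraries of the series, edgeR called 17 genes, all higher, among them Ptgfr, Cacna1g, Pgbd5, Cacna1h, Ncam1, Sptlc2, Synm, Xirp2, Itga5 and Supt5h.

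The wider calcium cycling list, which holds both T-type channels, was mixed. Of 25 tested genes 15 were higher and 10 lower, with 3 and 4 at an unadjusted p under 0.05 (12% and 16%, against 6.91% and 5.95% of all genes) and a median log2 fold change of 0.09. That median had no stable direction, at -0.02 without AOB-F replicate 4, -0.03 with the length trend taken out and 0.30 without Sham-LF replicate 3. Casq1, the calsequestrin of skeletal muscle that stores calcium in the reticulum, was at 72.6, 50.4, 39.1 and 62.2 CPM against 30.2, 24.6 and 31.7 CPM, and here all 4 animals were higher (0.97 ± 0.29, adjusted p = 0.328). Calm2, a calmodulin gene, was at 223, 226, 238 and 224 CPM against 288, 291 and 265 CPM, a narrow range in which replicates 1 and 4 did not stand apart (-0.30 ± 0.08, adjusted p = 0.328). Among the 26 potassium, sodium and pacemaker channels and connexins, 3 were higher and 3 lower at an unadjusted p under 0.05. These were 11.5% each, against 6.91% and 5.95% of all genes. Kcne1, a subunit of the slow delayed rectifier, was at 34.9, 3.59, 3.43 and 43.5 CPM against 5.48, 6.61 and 2.43 CPM. Kcnd2, the pore of the transient outward current, was at 7.91, 11.2, 13.2 and 11.4 CPM against 14.0, 18.8 and 24.3 CPM, without overlap.

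Matrix genes were higher as a list and again mainly in replicates 1 and 4. Of 37 matrix glycoproteins and crosslinking enzymes 32 were higher (54.2% of all genes were), at a median log2 fold change of 0.32 (0.19 without AOB-F replicate 1). An unadjusted p under 0.05 was reached by 10 of the higher (27% of the list, against 6.91% of all genes) and by no lower member. Thbs4, a thrombospondin of stressed muscle, was at 34.1, 1.22, 1.57 and 35.2 CPM against 1.33, 1.51 and 1.13 CPM. Periostin (Postn), a product of activated fibroblasts, was at 87.0, 13.1, 12.2 and 78.1 CPM against 6.37, 16.2 and 8.94 CPM. Ltbp2, which binds microfibrils, was at 58.3, 7.5, 7.44 and 49.9 CPM against 4.15, 8.92 and 6.45 CPM. In these 3 genes replicates 2 and 3 lay within or next to the sham range. Cilp, a matrix antagonist of TGF-beta, was at 33.1, 6.98, 6.01 and 31.4 CPM against 2.82, 4.46 and 4.02 CPM (2.37 ± 0.71, adjusted p = 0.328). Its lack of overlap was a condition of its choice. Of 13 collagens 12 were higher with a median of 0.36, 3 of them at an unadjusted p under 0.05 (23.1% of the list, against 6.91% of all genes). Col1a1 was at 211, 149, 146 and 197 CPM against 124, 123 and 145 CPM, and Col3a1 at 722, 576, 562 and 641 CPM against 524, 530 and 554 CPM. Both fibrillar collagens exceeded all shams in every failing animal, but by little. The log2 fold change was 0.43 for Col1a1 and 0.23 for Col3a1. With the length trend described below taken out, these were 0.25 and 0.07. Timp1, the inhibitor of matrix proteases, was at 25.7, 13.2, 14.7 and 25.9 CPM against 18.6, 19.4 and 17.9 CPM and overlapped between groups.

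Of the signalling genes, 17 of 20 TGF-beta and activin genes were higher (median 0.32, 4 at an unadjusted p under 0.05), as were all 9 tested EGF family genes (median 0.32, 2 at that p). The shares higher at that p were 20% and 22.2%, against 6.91% of all genes. The first median was 0.19 without Sham-LF replicate 1, and the second 0.79 without Sham-LF replicate 3. With the length trend described below taken out, the first was 0.25, with 16 higher and 4 lower. The second was then 0.20, with 7 higher and 2 lower. The ligand Tgfb2 was at 52.1, 12.5, 11.7 and 75.4 CPM against 11.5, 13.1 and 14.7 CPM, and the EGF receptor ligand Tgfa at 7.97, 1.22, 1.00 and 11.5 CPM against 0.889, 1.35 and 1.47 CPM. Gdf15, a stress-induced hormone of the same superfamily as TGF-beta, was at 5.08, 0.961, 1.57 and 6.12 CPM against 1.33, 1.67 and 0.849 CPM. All 3 were high in replicates 1 and 4 alone. Of 19 genes of the adrenergic, angiotensin and endothelin systems 14 were higher (median 0.19, and 0.094 without Sham-LF replicate 1). The angiotensin-converting enzyme Ace was at 23.8, 29.4, 22.2 and 24.2 CPM against 11.5, 12.8 and 17.6 CPM, and the endothelin receptor Ednrb at 25.6, 17.3, 15.7 and 23.8 CPM against 8.22, 8.45 and 15.1 CPM. These 2 genes did not overlap between groups, and their AOB-F replicates 2 and 3 also exceeded every sham.

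Genes of energy metabolism were mostly lower. Of 34 genes of fatty acid uptake and oxidation 24 were lower, with a median log2 fold change of -0.27 (-0.14 without Sham-LF replicate 3). An unadjusted p under 0.05 was reached by 8 of the lower (23.5% of the list, against 5.95% of all genes) and by no higher member. Fabp3, which carries fatty acids through the cytosol, was at 2409, 4559, 4616 and 2352 CPM against 6258, 5605 and 5165 CPM, without overlap (-0.70 ± 0.20, adjusted p = 0.328). Cpt2, an enzyme of mitochondrial fatty acid oxidation, was at 159, 233, 267 and 192 CPM against 289, 272 and 303 CPM. In both genes replicates 1 and 4 were lowest, and replicates 2 and 3 lay between them and the shams. Glycolysis showed no common direction, with 2 of 27 genes higher and 3 lower at an unadjusted p under 0.05 (7.41% and 11.1%, against 6.91% and 5.95% of all genes). Muscle enolase (Eno3) was at 400, 773, 769 and 433 CPM against 936, 936 and 948 CPM, without overlap (-0.65 ± 0.27, adjusted p = 0.354). Hexokinase 1 (Hk1), the isoform of the fetal heart, was at 330, 163, 155 and 363 CPM against 136, 150 and 192 CPM. Of 76 respiratory chain subunits 75 were lower, 39 of them at an unadjusted p under 0.05 (51.3% of the list, against 5.95% of all genes), and the median was -0.39. Cox7c, a subunit of cytochrome c oxidase, was at 1610, 2386, 2238 and 1427 CPM against 3563, 2912 and 2200 CPM, where Sham-LF replicate 3 lay between the failing animals.

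Transcript length moved with this contrast. With genes split by length into 4 equal classes of 60 to 1460, 1461 to 2163, 2164 to 3300 and 3301 to 23521 bases, the median log2 fold change was -0.15, -0.02, 0.06 and 0.17. In LV it ranged only from -0.02 to 0.04 and in Spt from -0.06 to 0.02. The longest class minus the shortest, against the mean of the 7 libraries, came to 0.19, 0.02, 0.04 and 0.22 in AOB-F and to -0.34, -0.25 and 0.08 in Sham-LF, so that Sham-LF replicates 1 and 2 leaned to short transcripts and Sham-LF replicate 3 resembled the failing animals. When the length trend of each library was taken out, chosen after the data had been seen, the respiratory chain median became -0.17, with 67 of 76 still lower and 17 at an unadjusted p under 0.05. Cytosolic ribosomal proteins, of which 77 of 81 had been lower at a median of -0.28, came to -0.03. The sarcomere list kept a median of 0.45, fatty acid genes -0.24 and matrix glycoproteins 0.25, while collagens came to 0.20, with 8 higher, 5 lower and 1 at an unadjusted p under 0.05.

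**Figure D3:**
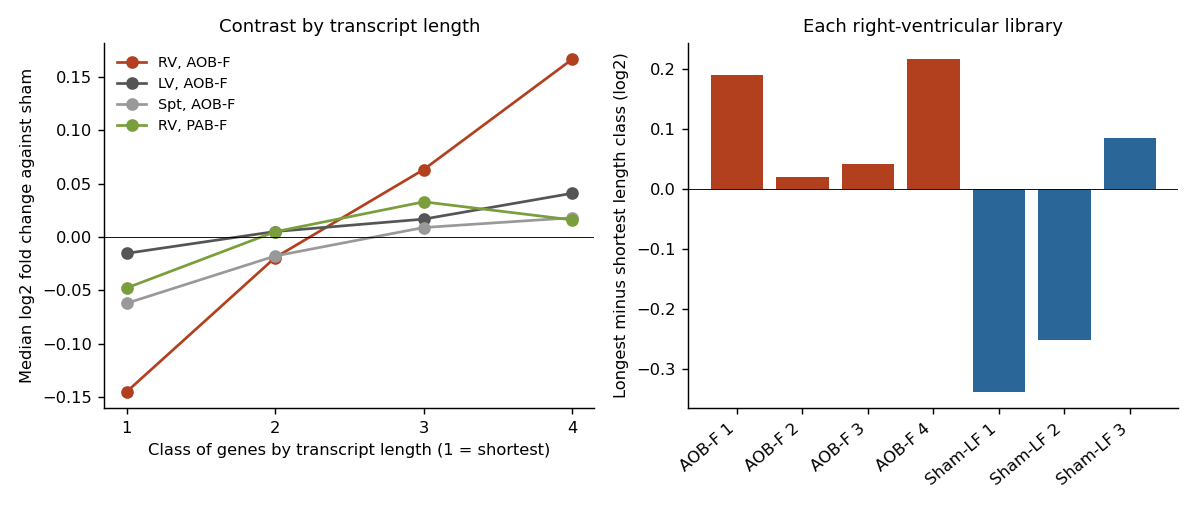
Left, median log2 fold change of genes in 4 classes of transcript length for 4 contrasts against the respective sham; right, log2 level of the longest minus the shortest class in each right-ventricular library (red AOB-F, blue Sham-LF). The RV contrast of AOB-F runs from -0.15 to 0.17 along length, and Sham-LF 1 and 2 lie below the other libraries.

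**Figure D4:**
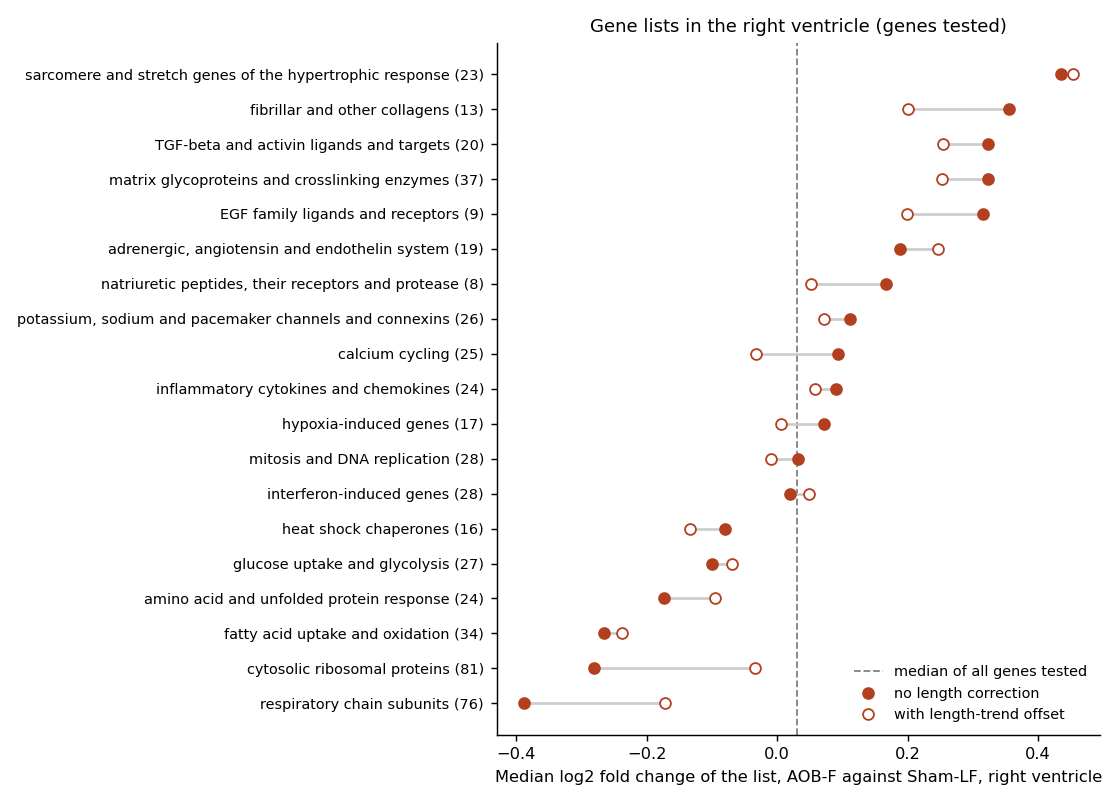
Median log2 fold change of each gene list in the right ventricle, with the number of genes tested in brackets; filled points without and open points with the length trend of each library taken out, and the dashed line at the median of all genes, 0.03. The sarcomere list stays at the top at 0.44 and 0.45, while ribosomal proteins shift from -0.28 to -0.03.

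With library series, a grouping read from the labels, as a covariate, 76 genes passed an adjusted p of 0.05 (0.648%), 63 higher (0.537%) and 13 lower (0.111%). All 7 libraries belong to the same series, so this term acts through the spread of the other RV libraries. The 63 higher genes had a median length of 3939 bases and the 13 lower ones of 1398 bases, against 2164 for all genes. When the length trend was taken out as well, the count was 0, and 2236 genes had an unadjusted p below 0.05. The genes named next were chosen without overlap between groups, so that their separation is no finding. Lama5, a laminin chain of basement membranes, was at 99.2, 88.5, 89.9 and 105 CPM against 51.3, 61.5 and 68.8 CPM (0.67 ± 0.21, adjusted p = 0.0336 with library series). Sin3a, a scaffold of histone deacetylase complexes, was at 33.6, 35.7, 37.3 and 35.3 CPM against 25.9, 24.1 and 30.0 CPM, and Ehmt2, a histone H3 lysine methyltransferase, at 85.2, 87.7, 82.5 and 79.2 CPM against 70.8, 64.7 and 70.7 CPM. Sptlc2, a subunit of the first enzyme of sphingolipid synthesis, was at 45.0, 32.6, 29.9 and 49.1 CPM against 23.2, 20.9 and 26.5 CPM. These 4 transcripts are longer than the median gene, and with the length trend taken out their log2 fold changes were 0.39, 0.27, 0.16 and 0.62.

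Of the lower genes, Cox16, an assembly factor of cytochrome c oxidase, was at 22.3, 31.8, 30.5 and 25.2 CPM against 44.6, 39.8 and 36.9 CPM (-0.55 ± 0.15, adjusted p = 0.0336 with library series). Hspe1, the co-chaperonin of the mitochondrial matrix, was at 132, 160, 159 and 128 CPM against 218, 198 and 170 CPM. Dnajc19, a part of the mitochondrial protein import motor, was at 79.9, 99.8, 98.2 and 77.1 CPM against 124, 117 and 112 CPM. The mitochondrial ribosomal protein Mrpl45 was at 124, 147, 151 and 129 CPM against 179, 184 and 172 CPM. With the length trend taken out, the log2 fold change of Cox16 was -0.34 and that of Hspe1, a short transcript of 530 bases, was -0.13, while that of Mrpl45 was -0.38. The ubiquitin-conjugating enzyme Ube2a, at 37.9, 49.6, 50.2 and 38.0 CPM against 64.2, 57.6 and 56.8 CPM, kept -0.39.

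Lists of stress and immune genes were read against the 12.9% of all genes with an unadjusted p under 0.05. Of 28 interferon-induced genes, 24 cytokines and chemokines and 28 genes of mitosis and DNA replication, none had an unadjusted p under 0.05. Of 24 genes of the amino acid and unfolded protein response 2 were higher and 3 lower at that p, and 18 of the 24 were lower at a median of -0.17 (-0.095 with the length trend taken out). Of 17 hypoxia-induced genes 1 was higher and 1 lower at that p, and so it was for the 16 heat shock chaperones, of which 13 were lower. Of 19 immediate early genes 1 was higher, and of 15 clock genes 1 was higher and 1 lower. Macrophage markers had a median of 0.18 in RV with 1 of 12 at an unadjusted p under 0.05, against 0.61 with 10 of 12 in LV, and without AOB-F replicate 1 the median in RV was 0.048. Yet AOB-F replicates 1 and 4 held the top ranks in 7 of the 12, among them Lyz2, at 197, 80.9, 75.3 and 167 FPKM in AOB-F and 95.8, 128 and 64.2 FPKM in Sham-LF, and Cd68, at 16.5, 9.29, 9.26 and 15.1 FPKM against 9.88, 12.3 and 7.90 FPKM. Lyz2 and Cd68 were thus high in the same 2 animals as the matrix and stretch genes. Other members did not follow, such as C1qa, at 155, 96, 93.1 and 121.5 FPKM against 130, 143 and 91.2 FPKM. Lyve1 was at 36.65, 28.21, 29.81 and 28.89 FPKM against 33.99, 33.23 and 32.45 FPKM. Over all genes tested, these 2 animals held the top ranks in 21.1%. Endothelial markers summed to 1629 to 2601 FPKM in AOB-F and 1973 to 3357 FPKM in Sham-LF, fibroblast markers to 2171 to 3485 and 2269 to 3541 FPKM, and markers of ventricular cardiomyocytes to 61100 to 85520 and 78330 to 102000 FPKM. In all 3 sums AOB-F replicates 1 and 4 were the lowest libraries, but the sums rest on a few abundant genes, such as Fabp4 with 1218 of 1741 FPKM of the endothelial sum in AOB-F replicate 1. By member, these animals held the bottom ranks in 3 of 12 endothelial, 4 of 11 fibroblast and 5 of 11 ventricular genes. They held the top ranks in 0, 4 and 1. Over all genes tested they held the bottom ranks in 21.5%. Endothelial genes had a median of 0.06, and 4 of the 12 (33.3%) were higher without overlap, against 4.89% of all genes. With the length trend taken out their median was -0.0063, with 6 higher and 6 lower. Fibroblast genes had a median of -0.11, with 4 higher and 7 lower (-0.054 with the length trend taken out). The fibroblast marker Pi16 was at 117, 53.1, 55.7 and 119 FPKM in AOB-F and 55.8, 56.1 and 37.0 FPKM in Sham-LF. Other members went the other way, such as Tcf21, at 18.1, 29.2, 29.2 and 16.9 FPKM against 38.6, 35.0 and 25.0 FPKM. No marker gene of any of the lists was at 0 in all libraries. The remaining marker lists had few members at an unadjusted p under 0.05, namely 2 of 9 of Schwann cells and neurons and 2 of 5 of skeletal muscle, both higher, 1 of 9 of lymphocytes and 1 of 11 of adipocytes, both lower, and none of smooth muscle cells and pericytes, neutrophils, mesothelial or erythroid cells. The part of cell composition in the results was not tested.

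The same genes were compared in the other chambers of the same animals. Cacna1g differed by 2.04 ± 0.45 in LV (adjusted p = 0.0338) and 1.56 ± 0.36 in Spt (adjusted p = 0.0554), beside 2.34 ± 0.49 in RV. Xirp2 differed by 1.74 ± 0.39 in LV (adjusted p = 0.0338) and 1.53 ± 0.33 in Spt (adjusted p = 0.0411), beside 2.06 ± 0.55 in RV. For Ltbp2 the values were 3.58 ± 0.68 in LV (adjusted p = 0.0292), 2.61 ± 0.71 in Spt and 2.25 ± 0.80 in RV. Sizes were thus of the same order, and no gene differed in its effect between RV and LV (0 of 11924 genes, lowest adjusted p = 0.926, 286 or 2.4% at an unadjusted p under 0.05, 0.906% higher and 1.49% lower) or between RV and Spt (0 genes, lowest adjusted p near 1, 122 or 1.02% at that p, 0.595% higher and 0.428% lower). A p that misses the threshold does not show that the chambers acted alike. The lowest p of the RV to LV difference was that of Rasl11a, a small GTPase at 1.03, 1.22, 1.79 and 0.841 CPM against 0.667, 0.717 and 0.283 CPM in RV, with an effect of 1.17 ± 0.37 in RV and -0.70 ± 0.40 in LV. Cacna1h differed by 1.42 ± 0.35 in RV and 0.50 ± 0.26 in LV (difference 0.91 ± 0.41, adjusted p = 0.926). Myh7 differed by 1.35 ± 0.43 and 0.65 ± 0.29 (difference 0.69 ± 0.49, adjusted p = 0.926). The counts above come from a fit that treated the chambers of an animal as independent. With the animal as a block in the 21 libraries of these rats, again 0 genes were called. An unadjusted p under 0.05 was then reached by 807 of 11462 genes for RV against LV and by 444 for RV against Spt. The block takes the animal numbers as given, including those of Spt questioned below.

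**Figure D5:**
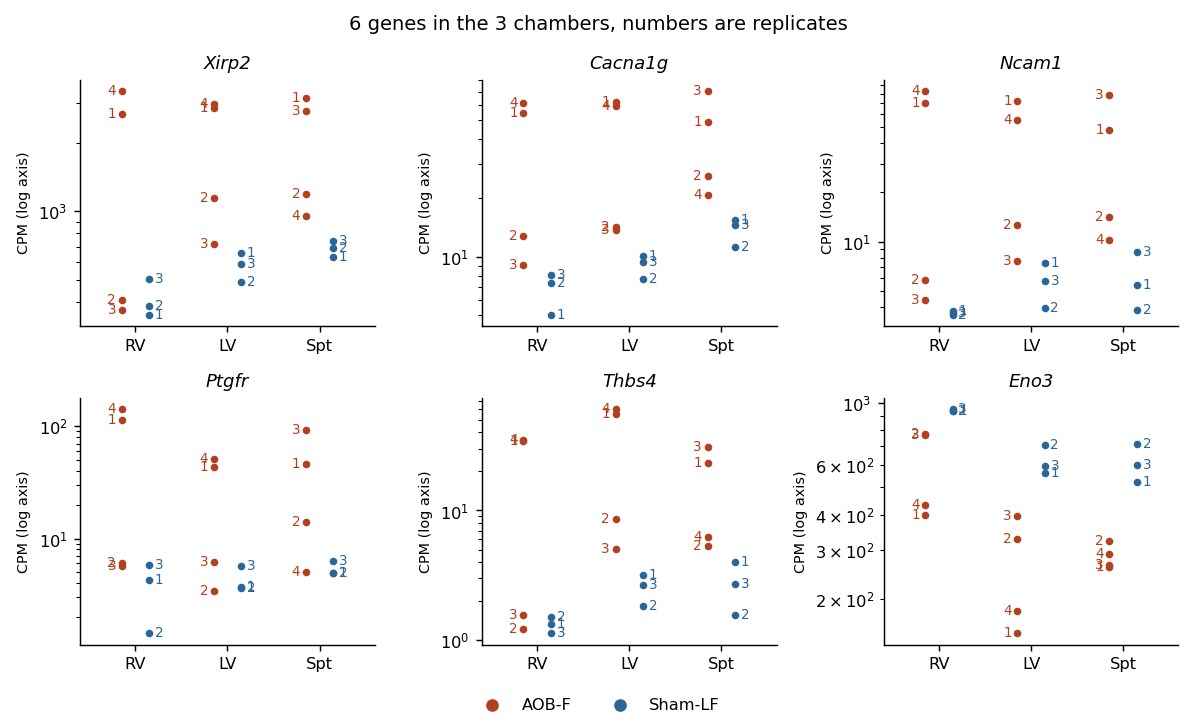
Levels of 6 genes in CPM on log axes in RV, LV and Spt of the same rats, with 1 numbered point per replicate (red AOB-F, blue Sham-LF). Replicates 1 and 4 are highest in RV and LV for the first 5 genes, whereas in Spt these are replicates 1 and 3.

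Across chambers, the high animals were mostly the same. Ncam1 in LV was at 72.3, 12.7, 7.67 and 55.0 CPM in AOB-F replicates 1 to 4, and in Spt at 48.1, 14.2, 78.6 and 10.3 CPM. In LV the high libraries were thus 1 and 4 as in RV, and in Spt they were 1 and 3. Over the 1509 genes with an unadjusted p under 0.05 in RV, the deviation of Spt replicate 3 from its group mean correlated with that of RV replicate 3 at r = -0.75 and with that of RV replicate 4 at 0.76, while Spt replicate 4 correlated with RV replicate 4 at -0.80 and with RV replicate 3 at 0.80. Spt replicate 3 correlated as closely with RV replicate 1, at 0.77, and Spt replicate 4 with RV replicate 2, at 0.79. The genes were picked in RV and mostly follow the split of replicates 1 and 4 from 2 and 3. These values therefore sort libraries by that split and cannot identify an animal. In this split, the Spt libraries of AOB-F replicates 3 and 4 went against the RV and LV libraries of the same number. Their group is the same, so the effects per chamber do not depend on it, whereas values that tie chambers by animal do.

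Finally the right ventricle was compared with other loads. In RV after pulmonary artery banding in failure, which loads this ventricle directly, 0 genes were called and 982 (8.37%) had an unadjusted p under 0.05, 4% higher and 4.37% lower. At the compensated stage of aortic banding 0 genes were called and 110 (0.937%) had such a p, 0.597% higher and 0.341% lower. The sarcomere list had a median of 0.56 in PAB-F, 0.44 in AOB-F and 0.19 in AOB-H, and the matrix glycoproteins of 0.17, 0.32 and 0.06. Collagens had a median of -0.03 in PAB-F, 0.36 in AOB-F and -0.07 in AOB-H. With the length trend taken out, the AOB-F median of collagens was 0.20. That correction was not run for PAB-F and AOB-H. Ankrd23 differed by 3.59 ± 1.283 in PAB-F and 1.97 ± 0.67 in AOB-H, beside 3.25 ± 1.04 in AOB-F. The AOB-H libraries ranged from 29.7 to 334 CPM in this gene with a median of 37.9 CPM, and their shams from 17.2 to 38.6 CPM. Without the 3 animals of opposite chamber difference, a choice made after the data had been seen, the AOB-H effect of Ankrd23 was 1.31, the sarcomere and matrix medians of AOB-H were 0.13 and -0.0036, and 0 genes were called in AOB-H, with 172 at an unadjusted p under 0.05. Cacna1h differed by -0.22 ± 0.40 in PAB-F and 0.16 ± 0.23 in AOB-H, beside 1.42 ± 0.35 in AOB-F, and Ptgfr by 1.18 ± 0.96 and 0.58 ± 0.54, beside 4.10 ± 0.90. The PAB-F means also hide unlike animals. Ptgfr was at 5.04, 25.8 and 14.0 CPM in PAB-F and at 6.31 and 6.86 CPM in Sham-RF, so PAB-F replicate 1 lay below both shams. Ankrd23 was at 92.8, 647 and 345 CPM against 35.8 and 24.1 CPM, with replicate 1 again lowest in PAB-F. Cacna1h was at 7.35, 11.3 and 11.7 CPM against 12.7 and 10.9 CPM. No gene passed the test of the difference between AOB-F and PAB-F (0 of 11734, lowest adjusted p near 1, 332 or 2.83% at an unadjusted p under 0.05, 1.96% higher and 0.869% lower) or between AOB-F and AOB-H (0 genes, lowest adjusted p = 0.740, 691 or 5.89% at that p, 3.28% higher and 2.61% lower). For Cacna1h these differences were 1.64 ± 0.52 and 1.27 ± 0.42, and neither passed the test. The 3 genes with the lowest p of the AOB-F to PAB-F difference were Zfp36, an mRNA-destabilizing protein (difference 1.33 ± 0.36), Acrbp (1.38 ± 0.38) and Phc1, a polycomb protein (0.62 ± 0.17), and in each the PAB-F effect, at -1.14, -1.09 and -0.43, was the larger part. For Zfp36 the Sham-RF libraries were themselves apart, at 130 and 65.5 CPM, against 33.4, 46.5 and 54.1 CPM in PAB-F.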

How the data were processed

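Polyadenylated RNA of right-ventricular tissue was sequenced by the authors. By the study's methods, single-end reads were trimmed with Trim Galore, mapped with STAR to Rnor6.0 with UCSC annotation and counted with featureCounts. Whether counting used the strand is not given in the sources used here, so overlapping genes on opposite strands are uncertain. The deposited counts are whole reads per gene, not normalized, for 17337 genes, of which 2218 had none. The authors also deposited normalized counts, a signal divided by a DESeq2 size factor, and FPKM, which divide it further by gene length. The ratio of these columns gave transcript length for 15119 genes, all within 0.01 of a whole number. Counts entered the tests, and FPKM served for markers.

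One fit of all 33 RV libraries with 7 conditions and no covariate used edgeR 4.0.16 (R 4.3.3), quasi-likelihood tests, TMM, filterByExpr and Benjamini-Hochberg adjustment over all genes. Differences between chambers came from a fit of all 99 libraries. Levels are TMM-scaled CPM. SE is the log2 fold change over the square root of F. Groups followed sample titles. In the header the column of Sham-LF replicate 1 matches its title, while its GEO description names the other older sham group. Apart from animal numbers and library series, the grouping read from the labels, nothing states how libraries were handled. Correlations of deviations between equal replicate numbers of both groups were -0.33, 0.15 and -0.39, so the numbers do not pair animals. The fits were tested on simulated data.

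The members and lists were chosen with earlier results of these data known. Named genes are 17 fixed ones, the 8 higher and 8 lower of lowest p, without overlap and with at least 1 CPM in the higher group, with and without library series, the 5 largest changes each way, the 3 lowest p of each list and of each difference. Not all of them are described. Promoters come from RefSeq on GRCr8 and lack the build of the counts. Alternatives were DESeq2 1.42.0, other scaling, filters, samples and covariates, and length offsets.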

Additional observations from a re-analysis of the deposited data

Results flagged for a closer look

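In the 4 AOB-F right ventricles 3 named genes had 1 library far from the other 3, in a test that flags about 1 in 20 groups of 4 by chance, and 106 genes were screened. Nap1l5 was at 3.00 CPM in replicate 3 and at 1.60 to 1.76 CPM in the others. Adss was at 27.2 CPM in replicate 4 and at 33.0 to 34.0 CPM in the others. Acrbp was at 2.43 CPM in replicate 3 and at 1.76 to 1.80 CPM in the others. Slc2a1, the basal glucose transporter, was higher in all 4 AOB-F right ventricles than in their 3 shams (log2 fold change 0.303) and lower in all 3 PAB-F right ventricles than in their 2 shams (-0.205). The difference between these effects was 0.51 ± 0.23 and did not pass edgeR's quasi-likelihood test.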

How the results depend on the processing

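No gene was called in RV under DESeq2 size factors, no filter on low counts, a minimum mean of 1 CPM, library series 2 alone, the 7 libraries alone, 30 RV libraries without the animals of opposite chamber difference, the length-trend offset with or without library series, or without the libraries highest in Myl7. Called were 76 genes with library series as a covariate, 17 in all 99 libraries and 3 by DESeq2, and leaving out 1 library gave 0 to 4, the latter without AOB-F replicate 3 and 3 without AOB-F replicate 2. The 1509 genes at an unadjusted p under 0.05 became 2854 with library series, 2570 in library series 2, 3041 without the libraries highest in Myl7, and 631 to 2581 when 1 library was left out. They were 631 without Sham-LF replicate 1, 883 without Sham-LF replicate 2, 637 without AOB-F replicate 1, 755 without AOB-F replicate 4 and 2581 without Sham-LF replicate 3; the cause was not tested. The 4 tests of differences between effects gave 0 genes under every alternative run. Of 106 named genes only Timp1 turned direction, to -0.057 without AOB-F replicate 1 and -0.061 without AOB-F replicate 4, in a range from -0.061 to 0.24 when 1 library was left out.

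With the replicate number as a replicate block, 0 genes were called in RV, against 0 without it, and 1661 reached an unadjusted p below 0.05. The 3 pairs did not deviate together. Depth limits genes under about 1 CPM, such as Rasl11a.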
